A study of Homo sapiens with 12 samples.

Results

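Gene expression after knockdown of PIAS1 was measured in androgen-deprived VCaP cells, an established human prostate cancer line from a vertebral metastasis that carries the TMPRSS2-ERG fusion. The comparison takes the 3 arrays of cells that received an siRNA pool against PIAS1 (siPIAS1) and the 3 arrays of cells that received a control pool labelled siSCR, so 6 of the 12 arrays of the series, and covers all genes measured. Both groups were treated alike otherwise. They were kept for 100 h in medium with 2.5% charcoal-stripped serum, which lacks most steroids, carried an ON-TARGETplus siRNA pool for 96 h and received no testosterone. The other 6 arrays hold the same siRNAs with 100 nM testosterone for the last 16 h (siPIAS1_testo and siSCR_testo). Each target was addressed with 1 pool in 1 cell line, and the labels do not say that the replicates were separate cultures, so the p-values measure only the spread between these samples, which may be technical.

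PIAS1 belongs to the protein inhibitor of activated STAT family, whose members act as E3 ligases for SUMO, a small protein that is coupled to lysines of target proteins. SUMO is activated by the E1 pair SAE1 and UBA2 and removed by the SENP proteases. PIAS1 is known as a coregulator of the androgen receptor and as a ligase for many nuclear proteins. In charcoal-stripped serum the receptor has little ligand, so the comparison addresses which transcripts depend on PIAS1 without androgen.

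Total RNA was labelled and hybridised to Illumina bead arrays with 47323 probes. On the 6 arrays of the comparison between 33.6% and 36.0% of probes were detected, and the signals of the 3 arrays of a group correlated at 0.994 to 0.996, against 0.984 to 0.986 between groups. The siPIAS1 arrays were dimmer before normalization, with mean scanner signals of 593 to 609, against 682 to 748 on siSCR arrays. Levels below are normalized signals on the log2 scale, 1 probe per gene, and differences are siPIAS1 minus siSCR with their standard error after ±. Every p-value is from limma's moderated test on all 10710 measured genes with Benjamini-Hochberg adjustment, and a gene is called when its adjusted p is under 0.05. The number of arrays limits the precision, with a median standard error of 0.126. The gene lists used below were chosen with earlier results of these data known, so shares of list members are descriptions.

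The targeted transcript was lower on every siPIAS1 array. PIAS1 measured 9.12, 8.97 and 9.23 after siPIAS1, against 10.25, 10.37 and 10.33 after siSCR, so the groups did not overlap. The difference was -1.21 ± 0.11, or 2.31-fold (adjusted p = 9e-06), and a residual PIAS1 signal was thus detected on all 3 siPIAS1 arrays. Of the 21 measured genes of the PIAS and SUMO pathway list, 2 were higher and PIAS1 alone was lower, with a list median of 0.01, against a median of -0.0044 over all genes. The share called, 14.3%, was near the 13.3% of all genes, and it includes PIAS1, the siRNA target itself.

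Both SUMO pathway genes that rose are linked to SUMO conjugation or removal. ZMIZ1, a PIAS-like coactivator of the androgen receptor, measured 12.54, 12.70 and 12.77 after siPIAS1 and 11.36, 11.59 and 11.75 after siSCR. The groups were apart and the difference was 1.10 ± 0.12 (adjusted p = 4.91e-05). SENP7, a protease that trims SUMO chains, averaged 7.66 after siPIAS1 and 7.08 after siSCR and was 0.58 ± 0.12 higher (adjusted p = 0.00717). The other PIAS family members were not called. PIAS3 differed by 0.29 ± 0.16 (adjusted p = 0.263) with groups that did not overlap, PIAS2 by -0.15 ± 0.10 and PIAS4 by -0.09 ± 0.10. The modifiers SUMO2, SUMO3 and SUMO4 (0.10, -0.01 and 0.30), the E1 subunit SAE1 (-0.07), the proteases SENP5, SENP6 and USPL1 (-0.08, -0.04 and 0.11) and the further ligases RANBP2, TOPORS, TRIM28, MUL1, NSMCE2 and ZMIZ2 (between -0.23 and 0.16) were not called either, nor were PML (0.18) and RNF4 (-0.09), which bind SUMO.

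Across all genes 1428 of 10710 were called (13.3%), of which 810 were higher after siPIAS1 (7.56% of all) and 618 lower (5.77%). Most differences were small. The median called gene was 1.48-fold higher or 1.40-fold lower, and 107 genes (0.999%) passed 2-fold, 93 of them higher and 14 lower. Groups did not overlap in 4559 genes (42.6%) and in 1425 of the called genes. Counts rest on the arrays that set the spread. The fit shares its spread with the testosterone arrays, of which siPIAS1_testo replicate 3 stood apart, and 2481 genes were called without that array and 2707 with only the 6 arrays of the comparison. With any 1 of these 6 left out, 765 to 906 were called. The balance of directions rests on the normalization. When arrays were scaled to their 75th percentile in place of quantile normalization, 620 genes were higher and 818 lower, so that 43.1% of calls were higher, against 56.7%.

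The largest increases joined secreted proteins, transcription factors and signalling genes. HEPACAM2, an adhesion protein found in secretory cells, measured 10.43, 10.49 and 10.39 after siPIAS1, against 8.22, 8.32 and 8.15 after siSCR (2.21 ± 0.13, adjusted p = 4.62e-07). ATOH1, a transcription factor that sets the secretory fate of gut epithelium, measured 7.96, 8.30 and 7.998 after siPIAS1 and 6.08, 6.20 and 6.42 after siSCR, where it was detected on 2 of 3 arrays (1.85 ± 0.12, adjusted p = 6.08e-07). TFF1, a trefoil peptide of mucous secretions, measured 9.56, 9.72 and 9.22, against 8.18, 7.92 and 7.85 after siSCR (1.52 ± 0.20, adjusted p = 0.000214). In each of these genes the lowest siPIAS1 array lay at least 1 log2 unit above the highest siSCR array. VTN, the adhesive plasma protein vitronectin, measured 8.63, 8.63 and 8.64 after siPIAS1 and a more scattered 7.09, 6.49 and 7.21 after siSCR (1.71 ± 0.18). PLOD2, which hydroxylates collagen lysines, rose by 1.72 ± 0.16, NTN4, a netrin, by 1.66 ± 0.10 and BRINP1 by 1.75 ± 0.17.

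Regulators of the cell cycle and of signalling were among the same 25 genes. CDKN1C, the CDK inhibitor p57, measured 9.01, 9.11 and 8.99 after siPIAS1, against 7.36, 7.39 and 7.49 after siSCR (1.62 ± 0.11, adjusted p = 8.71e-07). HES6, a transcription factor of the HES family, measured 10.14, 10.26 and 10.12 after siPIAS1 and 8.43, 8.45 and 8.57 after siSCR (1.69 ± 0.18). Both genes thus stood about 3-fold higher with no overlap. KCTD12, a subunit of GABA-B receptors, rose by 1.68 ± 0.11, RASD1, a RAS-like GTPase induced by glucocorticoids, by 1.59 ± 0.16, RGS2, which dampens G protein signalling, by 1.48 ± 0.14 and the ubiquitin ligase TRIM2 by 1.40 ± 0.15. MS4A8, TMEM178A and COLCA1 rose by 2.29 ± 0.10, 2.02 ± 0.12 and 1.98 ± 0.14.

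Several of the increases started from signals below detection. The fatty acid receptor FFAR4 measured 7.41, 7.64 and 7.66 after siPIAS1, against 5.37, 5.55 and 5.54 after siSCR, where no array detected it, and was at least 2.70-fold higher (adjusted p = 1.2e-07). The same held for the matrix protease MMP10 (means of 7.56 and 5.55, at least 2.67-fold), for TMEM200A (7.17 and 5.39, at least 2.05-fold), for the prostate secretory protein MSMB (6.98 and 5.14, at least 1.79-fold), for CYP26A1, which breaks down retinoic acid (6.60 and 5.14, at least 1.38-fold), and for TOX (6.48 and 5.02, at least 1.27-fold), each with the siPIAS1 mean first. Such a bound sets the siPIAS1 mean against the lowest signal that counted as detected. Here and below, an adjusted p printed beside a bound comes from the fit of all signals, those below detection included. It is not a test of the bound. In all, 64 genes were detected on all siPIAS1 arrays and on no siSCR array, and 53 of them were called. The other way round there were 29 genes, of which 16 were called.

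**Figure D1:**
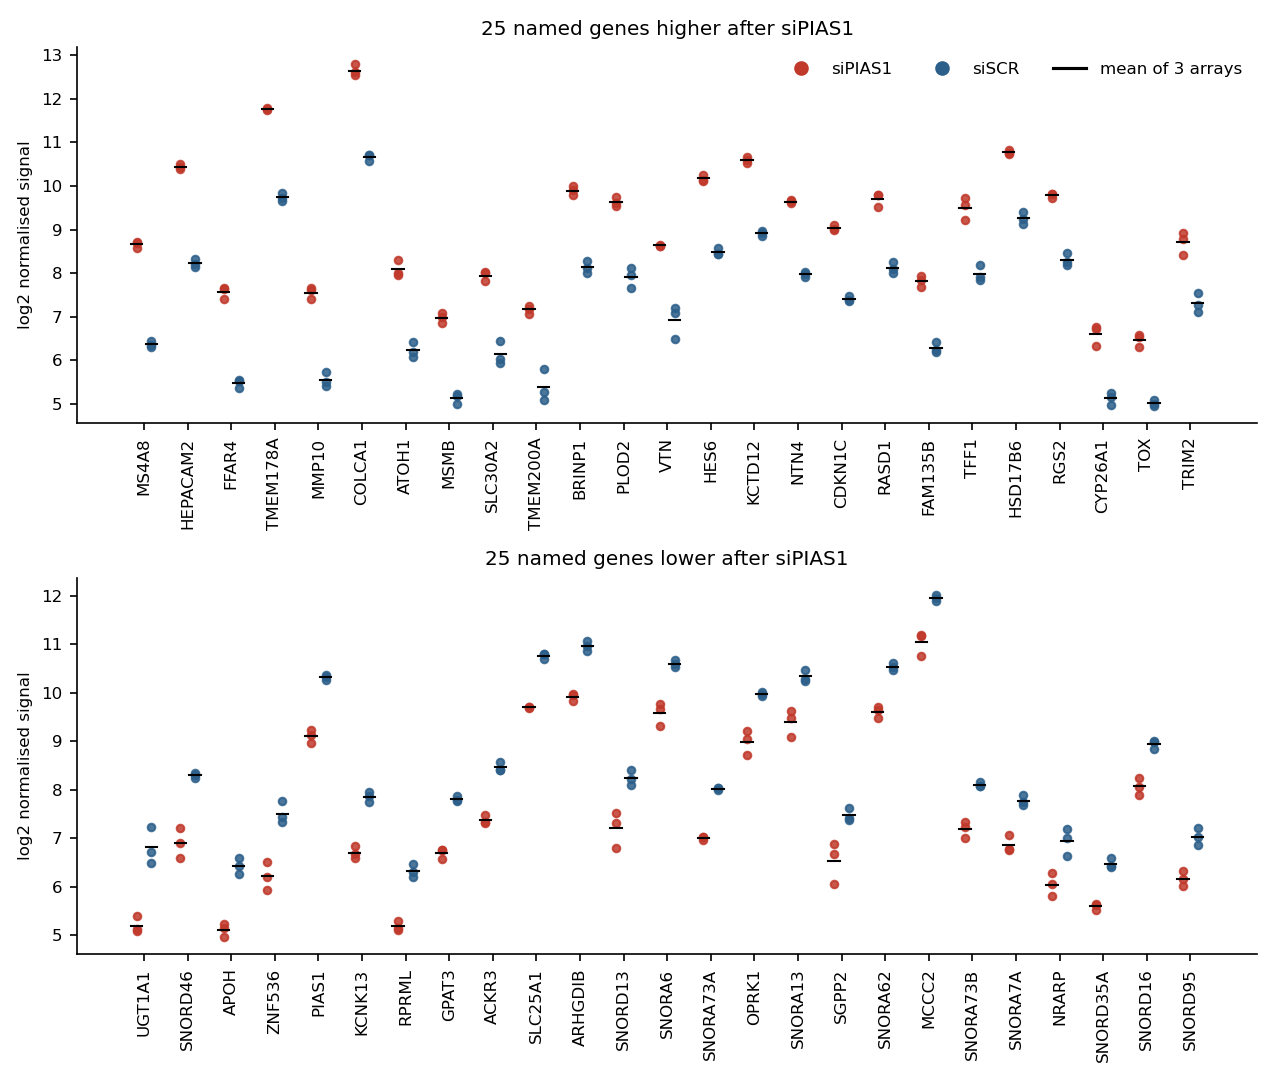
Normalized log2 signal of the 25 named genes with the largest increase (top) and the largest decrease (bottom), 1 dot per array, siPIAS1 left of siSCR, with the mean of 3 arrays as a bar. In every gene shown the siPIAS1 and siSCR dots do not overlap, which was a condition for naming it.

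Decreases were smaller, and 11 of the 25 largest were small nucleolar RNA genes. UGT1A1, which couples glucuronic acid to bilirubin and shares its later exons with the other UGT1A genes, was measured at 5.39, 5.10 and 5.12 after siPIAS1, below detection, against 6.72, 6.49 and 7.23 after siSCR (at least 1.56-fold lower, adjusted p = 0.000356). APOH, a plasma apolipoprotein (5.12 and 6.43, at least 1.19-fold lower), and RPRML (5.19 and 6.33, at least 1.11-fold lower) were also detected only after siSCR, with the siPIAS1 mean given first. Among genes detected in both groups, the citrate carrier SLC25A1 measured 9.71, 9.69 and 9.70 after siPIAS1 and 10.70, 10.79 and 10.80 after siSCR (-1.07 ± 0.18, adjusted p = 0.00168). These 3 siPIAS1 arrays differed from one another by far less than from siSCR. GPAT3, an enzyme of triglyceride synthesis, fell by 1.11 ± 0.09 and SGPP2, a sphingosine phosphate phosphatase, by 0.93 ± 0.17. Membrane proteins included the chemokine scavenger ACKR3 (-1.09 ± 0.10), the potassium channel KCNK13 (-1.15 ± 0.11) and the kappa opioid receptor OPRK1 (-0.98 ± 0.14). The zinc finger protein ZNF536 (-1.29 ± 0.17), the leucine breakdown enzyme MCCC2 (-0.92 ± 0.17) and the Notch feedback inhibitor NRARP (-0.90 ± 0.19) were also among the protein-coding genes of the set.

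Small nucleolar RNAs guide the chemical modification of ribosomal and spliceosomal RNA, the C/D box class (SNORD) for ribose methylation and the H/ACA class (SNORA) for pseudouridine, while their Cajal body relatives (SCARNA) act on spliceosomal RNA. Most are cut from introns of host genes. This group was singled out after its values were seen, so it is described without a test of its own. Of 138 measured genes of this kind, 68 were lower (49.3%, against 5.77% of all genes) and 1 was higher, with a median of -0.47. Each class took part, with 39 of 68 SNORA genes, 23 of 56 SNORD genes and 6 of the 14 others called lower, and medians of -0.53, -0.43 and -0.55. In 100 of the 138 every siPIAS1 array lay below every siSCR array, against 20.9% of all genes. With any 1 of the 6 arrays left out, 32 to 52 of them were called lower. These genes do not count as independent, since some share a host gene, such as SNORA6 and SNORA62 in RPSA. Some also shifted together between arrays. Replicate 3 was the lowest siPIAS1 array for SNORD46, SNORD13, SNORA6 and SNORA13, but not for SNORA73B or SNORD95.

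SNORD46 had the largest decrease of the class, with 7.22, 6.91 and 6.59 after siPIAS1, against 8.34, 8.31 and 8.25 after siSCR (-1.39 ± 0.19, adjusted p = 0.000336). SNORA73A, also known as U17, measured 7.02, 7.04 and 6.97 after siPIAS1 and 8.0004, 8.04 and 8.03 after siSCR (-1.01 ± 0.12, adjusted p = 0.00011), and its close copy SNORA73B differed by -0.91 ± 0.11, although the probes of such copies may not tell them apart. SNORD13, which has its own promoter, measured 7.32, 7.53 and 6.81, against 8.41, 8.23 and 8.10 after siSCR (-1.03 ± 0.25, adjusted p = 0.0152). In each of these genes every siPIAS1 array lay below every siSCR array. SNORA6 (-1.02 ± 0.15), SNORA13 (-0.94 ± 0.22), SNORA62 (-0.93 ± 0.11), SNORA7A (-0.91 ± 0.14), SNORD16 (-0.88 ± 0.13), SNORD35A (-0.88 ± 0.12, at least 1.24-fold lower) and SNORD95 (-0.87 ± 0.14) followed.

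Host genes had smaller differences at the median. For 109 of these RNAs a measured gene spans the locus in RefSeq, on either strand, which gave 78 genes taken as hosts. Of the hosts 10 were lower and 2 higher, against 5.77% and 7.56% of all genes, with a median of -0.13. Of the 109 small RNAs 88 lay below their host. Among 56 small RNAs that were called lower and had a measured host, the host was called lower in 13. SNORA7A differed by -0.91 inside RPL32 at 0.07, SNORA65 by -0.81 inside RPL12 at -0.03 and SNORD16 by -0.88 inside RPL4 at -0.20. These hosts, all ribosomal protein genes, were not called. After siSCR they averaged 14.87, 14.80 and 13.98, and the small RNAs 7.78, 8.57 and 8.95, so the pairs compare unlike signal levels. SNORA73A and SNORA73B lie in SNHG3, their known host, which was not used here, and RCC1, taken in its place because it spans the same locus, was 0.62 lower. SNORA70C, the only member that rose (0.60), lies within ASTN2, which rose by 1.13. A probe inside an intron also matches the unspliced host transcript, so the mature small RNA and the intron cannot be told apart. The hosts named here were chosen after their values were seen.

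Several abundant non-coding RNAs of other kinds were not called, while some dimmer ones were lower. The 18S and 28S ribosomal RNAs (RNA18SN5 and RNA28SN5) differed by 0.06 ± 0.11 and 0.08 ± 0.15, the signal recognition particle RNA RN7SL1 by 0.07 ± 0.09, the transcription regulator RN7SK by 0.08 ± 0.14, and the spliceosomal RNAs RNU1-1 and RNU6-1 by 0.05 ± 0.14 and -0.05 ± 0.11. RNU4-1, RNU4-2 and RNU11 differed by -0.42, -0.42 and -0.52 and were not called either. Of 23 measured microRNA genes 1 was lower, and of 13 small nuclear RNA genes 1 was lower (RNU4ATAC, -0.85), with a median of -0.23. Across all genes 5.77% were lower. TERC (-0.50) and VTRNA1-1 (-0.57) were called lower too, and the 4 Y RNAs had a median of -0.40 with none called. Decreases were thus not confined to small nucleolar RNA genes. These genes, too, were picked after the values were seen.

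**Figure D2:**
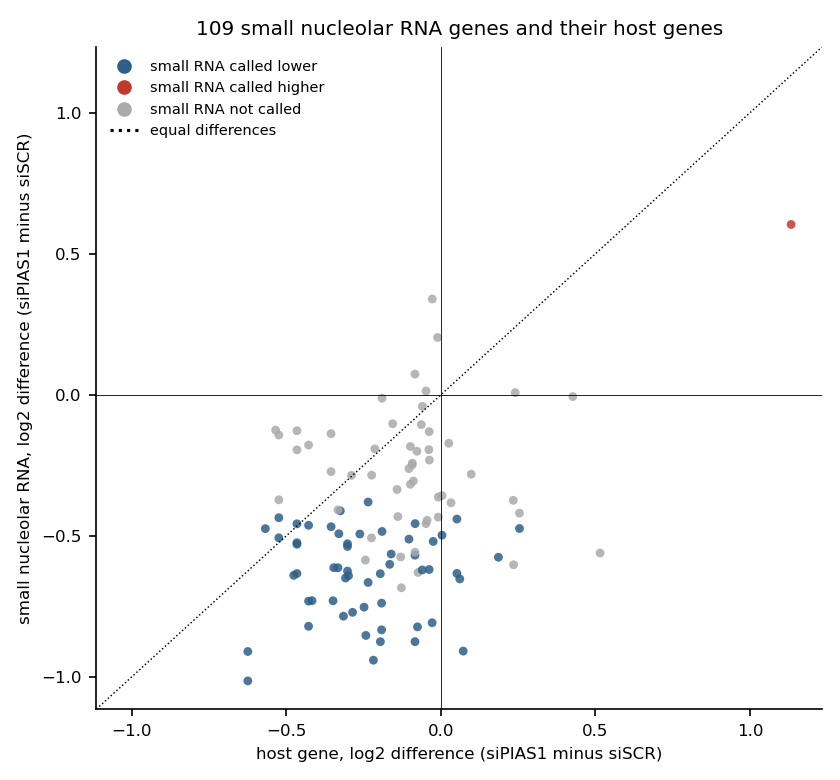
Each of 109 small nucleolar RNA genes, with its log2 difference (siPIAS1 minus siSCR, vertical axis) against that of its host gene (horizontal axis), coloured by the call of the small RNA. Most points lie below the dotted line of equal differences (88 of 109), and the red point at the upper right is SNORA70C in ASTN2.

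Genes that make ribosomes were lower in part. The list of the MYC network and ribosome biogenesis held 33 measured genes, with a median of -0.43. Of these, 15 were lower and none was higher (5.77% of all genes were lower). RRP12, a ribosome export factor, differed by -0.62, RRS1 by -0.55, PA2G4 by -0.50 and NIP7, a 60S maturation factor, by -0.57. FBL, the methyltransferase that works with C/D box RNAs, measured lower by 0.48 and NOLC1, a nucleolar chaperone of these particles, by 0.43. MYC, the transcription factor that gives the list its name, was itself 0.50 lower. With any 1 of the 6 arrays left out, 8 to 12 members of this list were called lower. The structural ribosomal proteins changed little, with 3 of 74 cytosolic members called lower (RPL29, -0.58, RPL28, -0.38, and RPS7, -0.56) and a median of -0.07. Of 76 mitochondrial ribosomal proteins 5 were lower, a share of 6.58% near the 5.77% of all genes, and none was higher. In 47 of them the siPIAS1 arrays all lay below the siSCR arrays, as in 20.9% of all genes, and the median was -0.22. Of 31 tRNA synthetase genes 4 were lower (VARS1, -0.50, EARS2, -0.42, YARS1, -0.34, and KARS1, -0.31), with a median of -0.16. The share called lower was 12.9% there and 4.05% among cytosolic ribosomal proteins, against 5.77% of all genes, and neither list had a gene called higher. In 22 of the 31 synthetase genes the siPIAS1 arrays all lay below the siSCR arrays, against 20.9% of all genes.

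Many genes of cell division were lower by a small amount. Of 40 measured DNA replication genes 19 were lower (5.77% of all genes were) and none was higher, with a median of -0.38 and a range of -0.73 to 0.0019, and in 34 all siPIAS1 arrays lay below all siSCR arrays, as in 20.9% of all genes. Of 62 mitosis genes 25 were lower, against the same 5.77%, and none was higher, with a median of -0.34 and a range of -0.58 to -0.06, and 59 were apart in that direction, against 20.9%. MCM4, a subunit of the replicative helicase, differed by -0.49, its partners CDC45 and GINS3 by -0.50 and -0.44, and MCM2 by -0.53. RRM2, which makes deoxyribonucleotides, was 0.57 lower and POLE2, a subunit of DNA polymerase epsilon, 0.49 lower. CDC20, the activator of the anaphase-promoting complex, differed by -0.55, its ubiquitin-conjugating partner UBE2C by -0.44, the checkpoint protein MAD2L1 by -0.58, CENPM at the kinetochore by -0.57, the kinase subunit CKS2 by -0.58 and FOXM1, a transcription factor of mitotic genes, by -0.51. In these bulk samples fewer cells of a kind, here dividing cells, and less RNA per cell cannot be told apart. With any 1 of the 6 arrays left out, 7 to 11 replication genes and 6 to 16 mitosis genes were called lower, and with only the 6 arrays in the fit 30 and 48.

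Promoters of some of these genes hold known cell-cycle elements, and a few are shown because many members were lower. In the 250 bases before the start site, both strands were searched for TTTGAA, the core of the cell cycle genes homology region, for CCAAT, and for TTTCCCGC or TTTGGCGC, forms of the E2F site. Matches were counted per promoter, with no allowance for overlap between motifs. Also searched were TCACNCCAC (N for any base), a sterol element, and CACGTG, the E-box. The sterol element was in 1 of 21 promoters of measured cholesterol genes (4.76%, against 0.832% of all measured genes) and in none of the 7 called. The E-box was in 4 of 27 promoters of the MYC list (14.8%, against 9.25%) and in none of the 9 called. TTTGAA was found in 29 of 52 promoters of measured mitosis genes in the RefSeq table (55.8%), against 732 of 8653 promoters of all measured genes (8.46%). TTTGAA and CCAAT stood together in 24 of the 52 (46.2%), against 3.61%. An E2F form was found in 11 of 35 replication promoters (31.4%), against 3.09%. Of the 20 mitosis genes called lower with a promoter in the table, 9 held both elements, against 24 of the 52 measured. TTTGAA alone or with CCAAT was in the same 9, against 29 of the 52. Of the 16 replication genes called lower with a promoter there, 4 held an E2F form (25.0%), against 31.4% of those measured. By these counts, which were not tested, called genes of both lists held these elements no more often than all measured members did. Promoters of the called members that hold them, with the smallest p-values, are given from RefSeq, build GRCh38.p14, in the direction of the gene and ending at the base before its start, with TTTGAA and CCAAT on either strand in capitals for mitosis genes.
CDC20 (chr1:43358793-43358980, + strand): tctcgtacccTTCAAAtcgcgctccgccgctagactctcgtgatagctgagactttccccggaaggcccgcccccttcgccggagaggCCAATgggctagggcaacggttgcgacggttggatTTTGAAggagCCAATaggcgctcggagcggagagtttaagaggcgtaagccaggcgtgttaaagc
CKS2 (chr9:89311037-89311194, + strand): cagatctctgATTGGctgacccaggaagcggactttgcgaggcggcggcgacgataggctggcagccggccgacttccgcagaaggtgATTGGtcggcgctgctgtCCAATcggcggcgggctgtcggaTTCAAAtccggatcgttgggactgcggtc
GTSE1 (chr22:46296770-46296869, + strand): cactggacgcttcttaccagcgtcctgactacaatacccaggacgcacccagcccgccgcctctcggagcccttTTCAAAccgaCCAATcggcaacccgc
ESPL1 (chr12:53268199-53268298, + strand): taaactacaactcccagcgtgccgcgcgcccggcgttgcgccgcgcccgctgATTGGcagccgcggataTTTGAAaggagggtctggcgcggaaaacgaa

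For replication genes the capitals mark the E2F forms. A match is a description of the letters and was not tested as a binding site.
GINS2 (chr16:85688955-85689054, - strand): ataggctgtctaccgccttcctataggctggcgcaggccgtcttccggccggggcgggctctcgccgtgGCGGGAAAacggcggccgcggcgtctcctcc
MCM7 (chr7:100101398-100101594, - strand): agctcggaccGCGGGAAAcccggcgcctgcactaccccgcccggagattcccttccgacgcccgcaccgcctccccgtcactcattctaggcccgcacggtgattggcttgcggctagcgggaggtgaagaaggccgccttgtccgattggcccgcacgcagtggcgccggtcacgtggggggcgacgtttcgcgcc
MCM6 (chr2:135876444-135876605, - strand): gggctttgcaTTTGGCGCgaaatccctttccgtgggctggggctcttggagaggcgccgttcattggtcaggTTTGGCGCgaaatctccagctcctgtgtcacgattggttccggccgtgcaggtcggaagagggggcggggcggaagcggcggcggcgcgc

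The genes whose promoters are printed were lower by similar amounts. CDC20 measured 11.38, 11.47 and 11.23 after siPIAS1, against 11.82, 11.87 and 12.04 after siSCR (-0.55 ± 0.11, adjusted p = 0.00382), and CKS2 measured 11.95, 11.85 and 11.67, against 12.65, 12.38 and 12.18 after siSCR (-0.58 ± 0.13, adjusted p = 0.00825). GTSE1, a microtubule-binding protein, and ESPL1, the protease separase, differed by -0.42 ± 0.10 and -0.40 ± 0.10. MCM7 and MCM6, of the replicative helicase, measured 12.17, 12.16 and 12.16 and 11.17, 11.28 and 11.33 after siPIAS1, against 12.50, 12.48 and 12.58 and 11.69, 11.63 and 11.81 after siSCR. Their differences were -0.35 ± 0.09 and -0.45 ± 0.12, and that of GINS2, which activates the helicase, was -0.38 ± 0.10. None of these genes had overlapping groups.

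**Figure D3:**
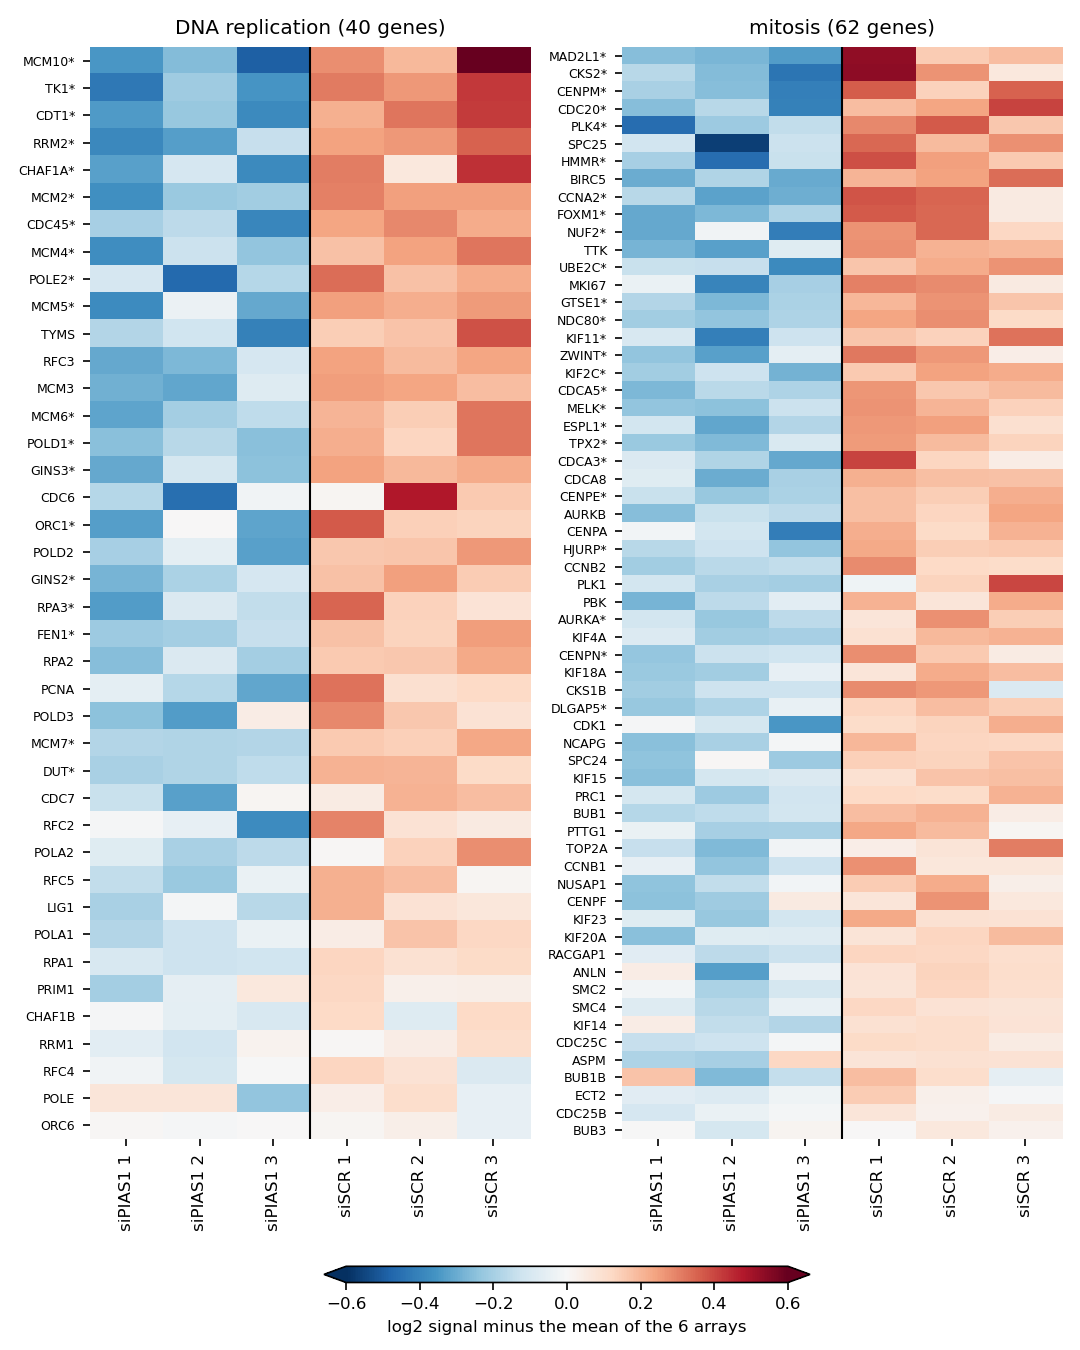
Heat maps of the 40 DNA replication genes (left) and the 62 mitosis genes (right), ordered by their difference, with the 3 siPIAS1 arrays left of the 3 siSCR arrays and an asterisk on called genes. Colour is the log2 signal minus the gene's mean over the 6 arrays, blue below and red above it. The siPIAS1 columns are mostly blue and the siSCR columns mostly red.

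Regulators of the G1/S step and repair genes moved in both directions. Of 22 genes of G1/S cyclins, CDKs and E2F factors 3 were higher and 5 lower, with a median of -0.12. The share called was 36.4% here, 45.8% among the repair genes and 29.4% among the p53 targets, against 13.3% of all genes. Besides CDKN1C, the CDK inhibitor CDKN1A (p21) measured 11.21, 11.14 and 11.18 after siPIAS1, against 10.20, 10.25 and 10.26 after siSCR (0.94 ± 0.12, adjusted p = 0.000229), and CDK6 was 0.81 higher. E2F1 measured 6.84, 6.78 and 6.21, against 7.600, 7.02 and 7.73 after siSCR (-0.84 ± 0.19, adjusted p = 0.00977), UHRF1, which reads methylated DNA at replication forks, differed by -0.50 and the phosphatase CDC25A by -0.46. So the CDK inhibitors CDKN1A and CDKN1C and the kinase CDK6 stood higher, while E2F1 and CDC25A, which promote S phase, stood lower. The inhibitors CDKN1B (0.02), CDKN2B (-0.05) and CDKN2D (0.29) were not called. Neither were the cyclins CCND1 (0.07), CCND3 (0.05) and CCNE1 (-0.25), nor E2F3 (-0.20). CDK6 was detected on 1 of 3 siSCR arrays and E2F1 on 2 of 3 siPIAS1 arrays. Of 24 homologous recombination and Fanconi genes 10 were lower and 1 higher, with a median of -0.34. XRCC3 and BLM differed by -0.73 and -0.61, RMI2, a partner of BLM, by -0.66, the checkpoint kinase CHEK1 by -0.58 and the nuclease EXO1 by -0.55, and BARD1, the partner of BRCA1, was 0.59 higher. Of 17 p53 target genes 4 were higher (CDKN1A, TP53INP1, 0.51, SESN1, 0.43, and ZMAT3, 0.30) and AEN was lower (-0.57), with a median of -0.11. Under 75th percentile scaling 1 p53 target was called higher. In fits that left out 1 of the 6 arrays, 1 to 3 G1/S genes, 5 to 7 repair genes and 1 p53 target were called lower, and 1 to 3 p53 targets higher.

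Histone genes were divided. Of 40 measured members 7 were higher and 5 lower, with a median of 0.02. That is 30.0% called, against 13.3% of all genes. H2BC21 measured 10.16, 10.00 and 10.07 after siPIAS1, against 8.69, 8.73 and 8.70 after siSCR (1.37 ± 0.09, adjusted p = 6.08e-07), and H2AC6, H2BC4 and H2BC5 were 0.76, 0.72 and 0.68 higher. The members called lower included H3C3 (-0.56) and H2AX (-0.51), the variant that marks DNA breaks. H3C3 was detected on 2 of 3 siPIAS1 arrays. In fits that left out 1 of the 6 arrays, 0 to 3 histone genes were called lower and 6 to 8 higher. Clustered histone genes are close copies, so their probes may not be separable.

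Many genes of secretory epithelial cells were higher. Of 20 measured members of the secretory lineage list 13 were higher (7.56% of all genes were) and none was lower, with a median of 0.67. The list was chosen with earlier results of these data known and holds several of the largest increases, so this share is only a description. No siSCR array detected 5 of the 20. When genes had to be detected on all 12 arrays, 8 were called higher. The 7 that were not called, among them AGR2 (0.08), SPDEF (0.29) and AGR3 (-0.24), lay between -0.24 and 0.36. Next to HEPACAM2, ATOH1, MSMB and TFF1, the trefoil peptide TFF3 measured 11.23, 11.50 and 11.43 after siPIAS1, against 10.10, 10.12 and 9.94 after siSCR (1.33 ± 0.12, adjusted p = 7.83e-06). GFI1, a zinc finger repressor that acts after ATOH1 in gut secretory cells, measured 7.70, 7.74 and 7.65 after siPIAS1 and 6.10, 6.44 and 6.43 after siSCR (1.37 ± 0.11, adjusted p = 4.64e-06), where 2 of 3 arrays detected it. Both genes stood higher on all siPIAS1 arrays. Leaving out any 1 of the 6 arrays gave 10 to 12 members. Of 15 neuroendocrine genes 4 were higher (26.7%, against 7.56% of all genes) and none lower, with a median of 0.23. They were DDC, which makes dopamine and serotonin (1.19 ± 0.11), HES6, the prohormone processing enzyme CPE (0.65) and the transcription factor INSM1 (0.62). DDC and HES6 also stand in the androgen-repressed list described below. Members not called included CHGA (0.42), ENO2 (0.33), SYP (0.23), SNAP25 (0.10), CHGB (0.03) and SCG2 (-0.14). Of 20 Notch pathway genes HES6 and HES2 (0.90) were higher and NRARP, detected on 1 of 3 siPIAS1 arrays, was lower, with a median of -0.15.

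Androgen-responsive genes were examined because the knocked-down protein is a receptor coregulator. Of 17 measured androgen-repressed genes 10 were higher and 1, OPRK1, was lower, with a median of 0.65. Across all genes 7.56% were higher and 5.77% lower. When genes had to be detected on all 12 arrays, 4 were higher. HSD17B6, an androgen-metabolising dehydrogenase, measured 10.74, 10.76 and 10.81 after siPIAS1, against 9.14, 9.41 and 9.24 after siSCR (1.51 ± 0.13, adjusted p = 7.42e-06). BCHE, butyrylcholinesterase, measured 7.22, 7.14 and 7.29, against 6.32, 6.05 and 6.14 after siSCR, where 2 of 3 arrays detected it (1.05 ± 0.11), and IGFBP3, which binds insulin-like growth factors, 11.92, 11.80 and 11.85, against 10.94, 10.91 and 11.12 after siSCR (0.87 ± 0.12). UGT2B10, of the enzymes that glucuronidate steroids, was 0.72 ± 0.10 higher, although UGT2B genes are near-identical. In the separate comparison of siSCR_testo with siSCR, which called 4748 genes (44.3%), testosterone changed HSD17B6 by -2.05 ± 0.13 and OPRK1 by -3.15 ± 0.14. That comparison uses the same siSCR arrays, so the values stand side by side only.

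Some androgen-induced genes were also higher without testosterone. Of 33 measured members 14 were higher and 2 lower, with a median of 0.26. That is 48.5% called, against 13.3% of all genes. Under 75th percentile scaling 8 were higher and 4 lower, and in fits without 1 of the 6 arrays 10 to 13 were higher and 0 or 1 lower. KLK2, a prostate kallikrein, measured 13.36, 13.41 and 13.42 after siPIAS1, against 12.74, 13.08 and 12.87 after siSCR (0.50 ± 0.11, adjusted p = 0.00734). KLK3, which encodes prostate-specific antigen, averaged 6.45 after siPIAS1 and 5.73 after siSCR, where no array detected it (at least 1.24-fold, adjusted p = 0.0141). The glucocorticoid-induced TSC22D3 was 0.94 ± 0.12 higher, KLK15 0.62 ± 0.10, the ubiquitin ligase HERC3 0.62 ± 0.10, the transporter SLC45A3 0.65 ± 0.11 and MICAL1, an actin-oxidising enzyme detected on 1 of 3 siSCR arrays, 1.31 ± 0.26. FKBP5, a strongly androgen-induced immunophilin, averaged 10.79 after siPIAS1 and 10.63 after siSCR and was not called (adjusted p = 0.262), and TMPRSS2 and ERG differed by -0.10 ± 0.09 and -0.16 ± 0.09 and were not called. Of 21 androgen receptor coregulators 1 was called (4.76%, against 13.3% of all genes). It was the pioneer factor FOXA2, which measured 7.89, 8.41 and 7.90 after siPIAS1, against 7.11, 7.14 and 7.13 after siSCR (0.94 ± 0.18, adjusted p = 0.00384).

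Lipid genes moved in both directions. Of the cholesterol list 30.4% and of the fatty acid list 15.6% were called, against 13.3% of all genes. Of 23 cholesterol synthesis and uptake genes 7 were higher and none lower, with a median of 0.22, 2 were higher under 75th percentile scaling and 4 to 7 with any 1 of the 6 arrays left out. HMGCS1, which makes the precursor of mevalonate, measured 13.09, 13.06 and 13.19 after siPIAS1, against 12.40, 12.36 and 12.20 after siSCR (0.80 ± 0.10, adjusted p = 0.000141). MSMO1, SC5D and IDI1, enzymes of the same pathway, were 0.63, 0.67 and 0.43 higher, and INSIG1, its feedback inhibitor, 0.45. Of 32 fatty acid and glycerolipid genes 3 were higher and 2 lower, with a median of 0.0022. ACSL1, which activates fatty acids, measured 11.92, 11.87 and 11.84, against 10.54, 10.52 and 10.52 after siSCR (1.35 ± 0.20, adjusted p = 0.000715), and the elongases ELOVL7 and ELOVL2 were 0.91 and 0.33 higher, opposite to GPAT3 and SLC25A1.

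The remaining metabolic lists differed in their share of calls, against 13.3% of all genes, with 25.0% for hypoxia and glycolysis, 28.6% for one-carbon and serine and 2.67% for oxidative phosphorylation. The share was 9.38% for mitochondrial carriers, 6.25% for polyamine metabolism and 10.7% for the amino acid response. Of 32 hypoxia and glycolysis genes 2 were higher (ALDOC, 0.48, and PFKFB4, 0.46) and 6 lower, among them the angiogenic factor VEGFA (-0.50), lactate dehydrogenase LDHA (-0.44) and enolase ENO1 (-0.36), with a median of -0.13, and 1 to 3 were lower with any 1 of the 6 arrays left out. Of 75 oxidative phosphorylation subunits 2 were lower (ATP5F1D, -0.47, and NDUFB10, -0.33), with a median of -0.12. Of 32 mitochondrial carriers SLC25A1, SLC25A18 (-0.83) and SLC25A39 (-0.43) were lower. Of 21 one-carbon and serine genes 4 were lower, among them the folate carrier SLC19A1 (-0.55) and MTHFD2 (-0.48), and GNMT (0.81) and CTH (0.54) were higher, with a median of -0.20. SMOX (0.44), spermine oxidase, was the 1 call among 16 polyamine genes. CTH and MTHFD2 also stand in the amino acid response list of 28 genes, where the stress regulator NUPR1 (0.65) was the remaining call. With any 1 of the 6 arrays left out, 1 to 3 one-carbon genes were lower and 0 or 1 higher, 0 or 1 oxidative phosphorylation and cytosolic ribosomal genes, 0 to 4 mitochondrial ribosomal genes and 1 to 3 tRNA synthetase genes were lower, and 0 or 1 polyamine genes higher. In the amino acid response list 0 to 2 genes were called in each direction in these fits.

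In the signalling lists between 7.41% and 19.2% of members were called, against 13.3% of all genes. Of 27 interferon response genes PARP9 (0.86) and HLA-B (0.69) were higher, with a median of 0.11, while the classical members ISG20 (0.31 ± 0.12, adjusted p = 0.109), MX1 (0.32 ± 0.15, adjusted p = 0.179) and TAP1 (0.19) were not called. Of 14 NF-kB response genes NFKB1 (0.53) and its feedback inhibitor TNFAIP3 (0.51) were higher, TNFAIP3 being detected on 1 of 3 siPIAS1 arrays and on no siSCR array. Of 24 TGF-beta and BMP response genes the receptor decoy BAMBI (0.94), ID3 (0.67) and thrombospondin THBS1 (0.63) were higher. Wnt receptors moved both ways among 26 genes, with FZD4 (0.45) and FZD8 (0.34) higher and FZD5 (-0.55), LGR4 (-0.55) and the effector TCF7L2 (-0.65) lower. Of 26 unfolded protein response genes CREB3L4 (0.37) was higher and DNAJC3 was called lower, although no array of either group detected it. FZD5 lost its call under 13 of 25 alternative settings and DNAJC3 under 8 of 23.

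**Figure D4:**
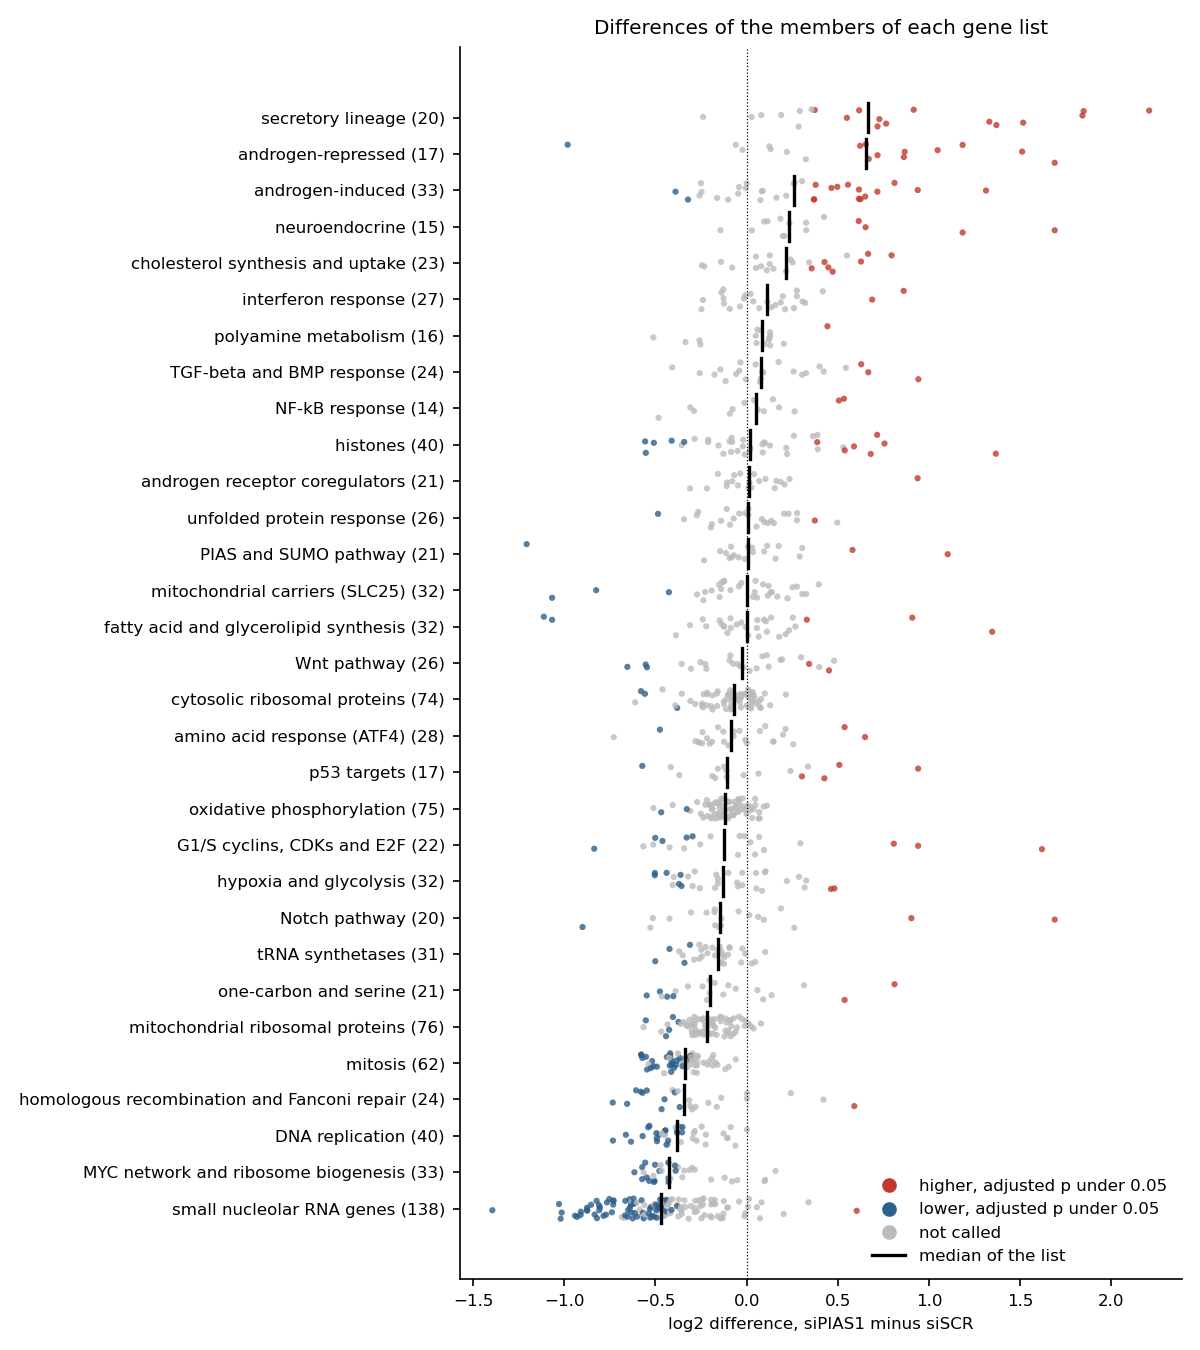
Log2 difference (siPIAS1 minus siSCR) of each measured member of 31 gene lists, 1 dot per gene, red for called higher, blue for called lower and grey for not called, with the list's median as a bar and the number of members in brackets. Lists are ordered by median, from 0.67 for the secretory lineage at the top to -0.47 for small nucleolar RNA genes at the bottom.

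Measured markers of luminal prostate cells were detected in both groups, except KLK3, which no siSCR array detected. Of 18 luminal and VCaP markers 16 were measured, including FOXA1 at 14.10 after siPIAS1 and 14.00 after siSCR, EPCAM at 14.01 after siPIAS1 and 14.03 after siSCR, ACP3 at 14.96 and 14.80 and HOXB13 at 10.89 and 10.88, in the same order, none of them called. Another 5 members were higher, namely KRT8 (0.74), KRT19 (0.79), SLC45A3, KLK2 and KLK3. That is 31.2% of the 16, against 7.56% of all genes called higher. The summed linear signal of the 16 was 119323 to 128197 on siPIAS1 arrays and 101177 to 110858 on siSCR arrays. Of 10 basal markers 1 was measured (DST, 0.27, not called). Among 13 fibroblast and smooth muscle markers 4 were measured, with a summed signal of 1450 to 1505 on siPIAS1 arrays, against 1220 to 1326 on siSCR arrays, where TAGLN (0.83) and LUM (0.53) were higher and VIM and ACTA2 were not called. Of 12 blood and endothelial markers 3 were measured, with a sum of 720 to 1017 on siPIAS1 arrays, against 758 to 892 on siSCR arrays, and CD14 was lower (-0.63), while LYZ was detected on no array of either group. Of 9 mesenchymal markers VIM and SNAI2 were measured, with a sum of 279 to 344 on siPIAS1 arrays, against 316 to 349 on siSCR arrays, and neither was called. The part of these markers in the results was not tested.

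The same knockdown was profiled with 100 nM testosterone on arrays that the comparison does not use, although the siRNA pools and the estimate of the spread are shared. There 3586 genes were called (33.5%), 1749 higher (16.3%) and 1837 lower (17.2%), and groups did not overlap in 41.7% of genes. Of the 810 genes higher without testosterone, 390 were higher with it (48.1% of the 810 and 22.3% of the 1749), 59 were lower and 361 were not called. Of the 618 lower genes, 345 were lower with testosterone (55.8% of the 618 and 18.8% of the 1837), 28 were higher and 245 were not called. PIAS1 differed by -0.76 with testosterone, and the interaction was not called for it (0.44 ± 0.15, adjusted p = 0.08).

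Among genes called in the same direction in both settings, those with the largest smaller difference were secretory and regulatory genes upwards and mostly small nucleolar RNAs downwards. TMEM178A (2.02 without and 1.82 with testosterone), ATOH1 (1.85 and 2.28), SLC30A2 (1.81 and 1.80), HES6 (1.69 and 1.75), CDKN1C (1.62 and 2.22), TFF1 (1.52 and 1.57) and HSD17B6 (1.51 and 1.67) were higher in both. SNORD46 (-1.39 and -1.36), SNORA73A (-1.01 and -0.91), SNORA13 (-0.94 and -0.96), SNORD16 (-0.88 and -0.84) and DCDC2 (-0.82 and -0.81) were lower in both. MSMB and RPRML were also called in both settings, upwards and downwards, but 1 group lay below detection without testosterone, so only the bounds given above apply. Of the 138 small nucleolar RNA genes 84 were lower with testosterone, with a median of -0.47. Across all genes 17.2% were lower there and 16.3% higher, and 9.94% had a called interaction. Mitosis genes had a median of -0.34 with testosterone as well, with 34 of 62 lower, whereas DNA replication genes had a median of -0.05 there, with 6 higher and 6 lower, and 10 of the 40 had a called interaction.

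Other differences depended on testosterone. The interaction, siPIAS1 minus siSCR with testosterone minus the same without it, was called for 1065 genes (9.94%), positive in 523 (4.88%) and negative in 542 (5.06%), of which 347 were also called without testosterone. KCTD12 was 1.68 ± 0.11 higher without testosterone and differed by -0.59 with it (interaction -2.27, adjusted p = 8.79e-07). CEMIP, which degrades hyaluronan, measured 9.92, 9.87 and 9.88 after siPIAS1, against 8.64, 8.69 and 8.61 after siSCR (1.24 ± 0.13), and differed by -1.10 with testosterone. NR5A2, an orphan nuclear receptor, measured 6.54, 6.39 and 6.59, against 7.35, 7.30 and 7.36 after siSCR (-0.83 ± 0.13), and differed by 1.74 with testosterone. These genes thus changed direction between the settings. SLC4A4, a bicarbonate transporter, did so as well (-0.63 and 2.31). PTGER4, a prostaglandin receptor, was 0.44 ± 0.11 higher without testosterone and 3.34 higher with it.

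**Figure D5:**
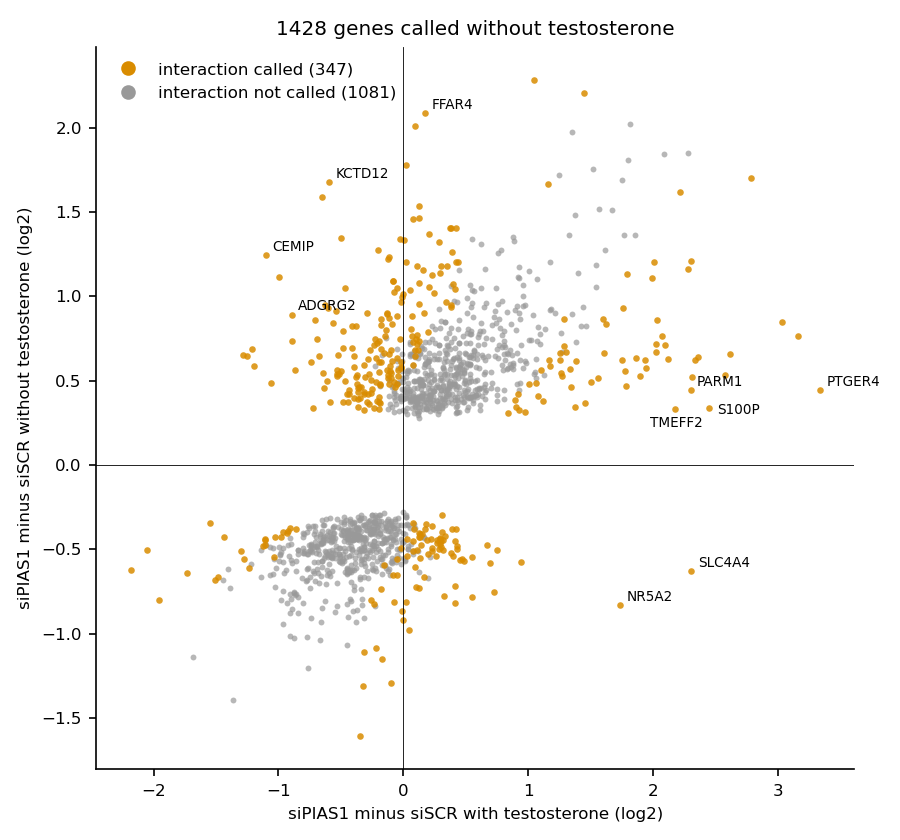
Log2 difference of the 1428 genes called without testosterone (siPIAS1 minus siSCR, vertical axis) against their difference with 100 nM testosterone (horizontal axis), orange for the 347 genes with a called interaction. Genes in the upper left and lower right quadrants, such as KCTD12, CEMIP, SLC4A4 and NR5A2, have opposite signs in the 2 settings.

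Probes of the same gene mostly had the same sign. Of 335 called genes with more than 1 detected probe, all probes had the same sign in 311 (92.8%), against 72.1% of all 2707 such genes, and in 4 another probe differed in the opposite direction at an unadjusted p under 0.05. Among these were CHRNA5, where the probe used gave 0.38 and the other -0.38, SLC38A10 (-0.45 and 0.32) and ARMCX3 (0.62, others -0.38 and 0.54). The sizes differed more, as for SLC30A2 (1.81 and 0.50), PLOD2 (1.72 and 0.84) and GCOM1 (1.02 and 0.29).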

How the data were processed

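The scanner intensity of every probe was deposited by the authors without normalization, per the file headers, and the deposited files pair each signal with a detection p-value. A second deposited table holds log2 values by the authors. lumi is named in the submitters' processing notes, and its version and the table's transform are not given in the sources read for it. Its columns ranked probes as the scanner signals did (array medians 7.60 to 7.61), and it served only as an alternative. No genome build is named for the files.

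Signals were corrected and normalized by neqc (normexp background from detection p, quantile step, offset 16) in limma 3.58.1 under R 4.3.3. Probes detected at p under 0.01 on at least 3 of 12 arrays were kept (17835 of 47323), and the brightest named probe stood for each gene, which left 10710 genes. Names came from the platform annotation, updated for 30074 of 30113 probes through RefSeq (GRCh38.p14). Probes with several genes (8) or none listed (17202) were not named. A limma model of 4 group means on 12 arrays (8 residual and 5.77 prior degrees of freedom) gave all comparisons, with a threshold of 0.05 after Benjamini-Hochberg adjustment over all genes. An exact permutation test of 3 against 3 arrays cannot go below 0.1 and was not used.

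The members and the 30 gene lists and 5 marker lists were chosen with earlier results of these data known. Genes are named by rule, namely PIAS1, the 25 largest called differences each way with groups apart and detection on all brighter arrays, up to 6 members per list by smallest p (all called members where there were at most 5), all SUMO pathway members, the 10 strongest interactions among called genes, the 10 called both with and without testosterone in each direction, and the 10 with most probe disagreement. The small RNAs and their hosts, AGR2, AGR3, SPDEF, MYC, FKBP5, TMPRSS2, H2AX, H3C3, GTSE1, ESPL1, GINS2, MCM6, MCM7, FOXA1, EPCAM, ACP3 and HOXB13 were named after their values were seen, as was the alternative run of the small nucleolar RNA counts. The same holds for CDKN1B, CDKN2B, CDKN2D, CCND1, CCND3, CCNE1, E2F3, CHGA, CHGB, SYP, ENO2, SNAP25 and SCG2. Replicate numbers did not pair the arrays (correlations of same-numbered deviations -0.0099, -0.0607 and -0.0314, and 0.0959, 0.195 and 0.0214 with testosterone). Neither slide nor scan date is given in the files used here, so no batch could be examined.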

Additional observations from a re-analysis of the deposited data

Results flagged for a closer look

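The difference between siPIAS1 and siSCR depended on the presence of testosterone for 1065 genes, by the test of the interaction in the limma fit. Among those also called without testosterone, the 10 with the smallest interaction p were, with the difference with testosterone minus the difference without it on the log2 scale, SLC4A4 (2.94), PTGER4 (2.89), NR5A2 (2.57), S100P (2.11), PARM1 (1.86), TMEFF2 (1.84), ADGRG2 (-1.79), FFAR4 (-1.91), KCTD12 (-2.27) and CEMIP (-2.34). S100P was detected on no array of either group without testosterone, so its level there is only a bound. FFAR4 was detected on all 3 siPIAS1 arrays and on no siSCR array, so its difference without testosterone is a bound too. ADGRG2 was detected on 2 of 3 siPIAS1 arrays and on no siSCR array.

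Among the 3765 detected probes with no gene listed, which entered no comparison above, 224 differed between siPIAS1 and siSCR at an adjusted p under 0.05 when all 17835 detected probes were fitted with limma. Their transcripts are not named here.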

How the results depend on the processing

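The number of genes changed by siPIAS1 without testosterone was 1428 and moved past 1.5-fold with only the 6 arrays (2707), with array weights (3357) and with 1 array left out (765 to 2481, the highest without siPIAS1_testo replicate 3, the lowest without siSCR replicate 1). Each of the 6 arrays of the comparison lowered it when left out, to 906 at most. The interaction count of 1065 became 2612 with array weights and 656 to 1506 with 1 array left out, the lowest without siSCR_testo replicate 3. The count with testosterone, 3586, ranged from 2380 (without siSCR_testo replicate 2) to 3753 on leaving out 1 array and that of testosterone after siSCR, 4748, from 4039 to 5767. PIAS1 was called lower under all 25 alternatives. Replicate numbers are shared by the labels only, and a replicate block gave 1298 genes without testosterone, 3410 with it, 942 for the interaction and 4664 for testosterone. CHRNA5 turned to -0.001109 when detected probes were averaged, and DNAJC3 to 0.03549 when undetected signals were raised to the lowest detected one, where the cause was not tested. Of 184 named called genes other than PIAS1, 17 lost the call under 75th percentile scaling, 12 with the authors' log2 values and 34 to 41 with 1 of the 6 arrays left out. Bound-only levels, the small number of arrays and the offset, which compresses folds at low signal, limit the smallest genes.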

Other observations

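A few further small non-coding RNAs were called lower, the direction of the small nucleolar RNAs. They were looked up after the values were seen. Among 23 measured microRNA genes and 13 small nuclear RNA genes 1 each was lower, while 5.77% of all genes were. VTRNA1-1, a vault RNA, averaged 5.86 after siPIAS1 and 6.43 after siSCR (-0.57 ± 0.16, adjusted p = 0.034), TERC, the telomerase RNA, 7.71 and 8.21 (-0.50 ± 0.14, adjusted p = 0.0358) and RNU4ATAC, of the minor spliceosome, 8.10 and 8.95 (-0.85 ± 0.23, adjusted p = 0.0289). In the limma comparison with testosterone VTRNA1-1 and RNU4ATAC differed by -0.998 and -0.65, whereas TERC was 0.43 higher (adjusted p = 0.0348). RPPH1, the RNA of ribonuclease P, just missed the threshold (-0.45 ± 0.14, adjusted p = 0.0523). Of the Y RNAs RNY1, RNY4 and RNY5 differed by -0.41, -0.82 and -0.39 and RNY3 by 0.09, none of them called.

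By chromosome, the share of called genes ran from 6.90% on chromosome 18 to 21.3% on chromosome 4 (50 higher and 33 lower of 389), leaving out Y and unplaced genes, against 13.3% of all. On chromosome 16, 19 genes were higher and 49 lower, with a median difference of -0.07. These shares were not tested.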
